A study of Mus musculus with 19 samples.

Results

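Autosomal gene expression of male and metestrus female astrocytes was compared within a single batch of libraries. Ribosome-bound messenger RNA was profiled by RNA sequencing in 19 libraries from mouse brain. The 9 libraries of batch 4 were chosen by their labels, namely the 4 with genotype M (labelled Males) and the 5 with genotype F labelled Metestrus. The other 10 libraries are females of batches 2 and 3. X- and Y-linked genes were left out, and genes without a known chromosome too. Of 21749 genes in the table, 18820 were autosomal, and 16071 of these passed the filter on low values and were tested.

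Both groups came from the transgenic line Tg(Aldh1l1-EGFP/Rpl10a)JD130Htz/J on the background B6;FVB. In these animals the Aldh1l1 promoter, which is active in astrocytes, drives ribosomal protein L10a fused to EGFP, and the tagged ribosomes are captured with antibody-coated beads (translating ribosome affinity purification, TRAP). Every library of both groups therefore carried the transgene. Female mice were collected at 09:00. The hour for the males, the ages of the animals, and whether each library came from its own animal, are not stated in the labels. The p-values thus measure the spread between libraries.

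Astrocytes clear glutamate and potassium from the synaptic space, supply neurons with lactate and cholesterol, and contact blood vessels with their endfeet. They carry receptors for steroid hormones and for neuromodulators such as serotonin, and their filament protein GFAP is known to vary with hormonal state in several brain regions. Metestrus is the phase of the mouse estrous cycle after ovulation, when circulating estradiol is low. Immediate early genes encode short-lived transcription factors and signalling regulators that are induced within minutes of calcium, cAMP or growth factor signals, in neurons and in astrocytes.

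Deposited values were in log2 units, and the sequencing depth behind them is unknown. Taken back from the log scale they summed to 2.23e7 to 2.56e7 in male and 2.12e7 to 2.53e7 in metestrus libraries. All 22 astrocyte markers were detected, with a mean log2 value over the list of 13.84 to 14.10 in males and 13.63 to 14.19 in metestrus. The 18 neuronal markers were also all detected, at 12.28 to 12.56 in males and 12.32 to 12.58 in metestrus. Across genes, the median correlation between 2 male libraries was 0.952, between 2 metestrus libraries 0.952, and between a male and a metestrus library 0.953. Libraries of one sex were thus no more alike than libraries of different sex.

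One autosomal gene passed the adjusted threshold, Htr6, which encodes the serotonin receptor 6, a receptor that couples to cAMP production. It was higher in males. The call came from limma's moderated test with Benjamini-Hochberg adjustment at 0.05, and 1 gene of 16071 is 0.00622%. No autosomal gene was called lower. At an unadjusted p under 0.05, 737 genes (4.59%) were higher and 327 (2.03%) lower in males. All male libraries lay above all metestrus libraries for 248 genes (1.54%), and below them for 149 genes (0.927%). A further 5 genes that are not on a numbered chromosome, or could not be placed, passed the threshold and are not described.

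The median difference, males minus metestrus, was 0.05 on the log2 scale, and 58.1% of autosomal genes had a positive value. That share depends on the scaling. It was 50.7% after centring each library on its median, 47.9% after quantile normalization and 43.8% after scaling the libraries to equal totals, so a general shift between the sexes has no fixed direction here. The 95% confidence interval of the difference had a median reach of 0.49 to either side and lay within 1 log2 unit of 0 for 11248 genes (70.0%). Precision followed the level of the gene. The interval lay within 1 unit for 2.83% of genes with a mean log2 value under 5, for 53.8% from 5 to 8, for 96.2% from 8 to 11 and for 98.7% at 11 or more. For most well expressed genes a difference of 1 log2 unit between the sexes would thus have fallen outside the measured interval, whereas for most weakly expressed genes the interval reached past 1 unit.

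**Figure D1:**
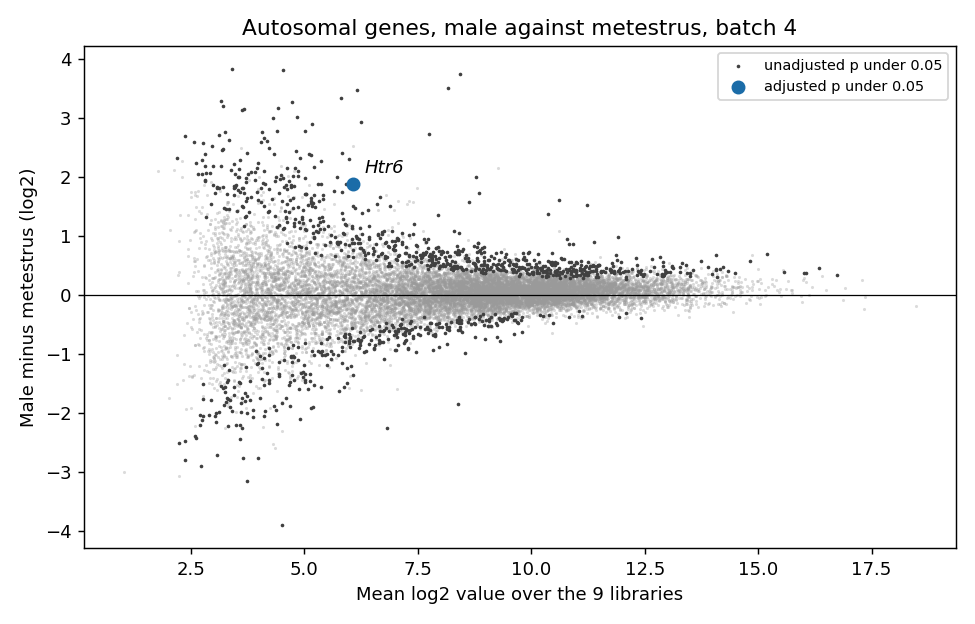
Difference between males and metestrus (log2, y axis) against the mean log2 value over the 9 libraries (x axis) for the 16071 autosomal genes tested. Dark points have an unadjusted p under 0.05, and the blue point is Htr6, the gene past the adjusted threshold, at 1.87.

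Htr6 (ENSMUSG00000028747.11, chromosome 4) is shown with its start region because it is the single autosomal call. RefSeq places a start on the minus strand, and the 250 bases before to 50 after it are at chr4:139075521-139075820 in GRCm38.p6. The stretch was searched on both strands for AGGTCA, the cAMP response element TGACGTCA and the serum response element. AGGTCA is only a part of an estrogen receptor site, and the full site was not searched for. Capitals mark the matches.

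Htr6: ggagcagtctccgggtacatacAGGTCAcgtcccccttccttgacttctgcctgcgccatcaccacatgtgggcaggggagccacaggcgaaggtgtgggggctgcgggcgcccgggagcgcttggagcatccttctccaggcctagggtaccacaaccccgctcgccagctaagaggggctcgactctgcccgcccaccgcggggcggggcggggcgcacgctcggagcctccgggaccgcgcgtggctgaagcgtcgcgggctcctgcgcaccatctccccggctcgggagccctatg

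It holds AGGTCA at 1 place and neither of the other motifs. AGGTCA was found in 16.3% of the 32851 promoters of the table, and in the second RefSeq start region of Htr6 as well. Matches describe letters in a window and show no binding.

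Values are listed in the order of replicates 1 to 4 for males and 1, 2, 3, 4 and 6 for metestrus. The log2 values of Htr6 in the males were 7.17, 6.85, 7.23 and 7.23. In metestrus they were 5.36, 5.27, 5.41, 4.88 and 5.32. The groups did not overlap, and the lowest male library stood well above the highest metestrus library. The group means were 7.12 ± 0.18 (SD, n = 4) and 5.25 ± 0.21 (SD, n = 5), a difference of 1.87 with a standard error of 0.26, or 3.66-fold (limma, adjusted p = 0.0175). In the other females, which belong to other batches, Htr6 lay between 4.08 and 5.88 in 3 metestrus, between 5.27 and 5.39 in 3 proestrus and between 4.34 and 6.62 in 4 estrus libraries. Every one of these was below the lowest male, although sex and batch cannot be told apart in that comparison.

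The size of the difference was stable, from 1.78 to 1.96 when any 1 library was left out. The call was not. The limma-adjusted p passed the threshold without metestrus replicate 1 or 2 and missed it without any other single library, at 0.0538 to 0.136. It was also 0.0888 when adjusted over the autosomal genes alone, 0.163 with the replicate number as a block, and 0.11 when all 19 libraries were fitted with batch as a term. With the directions of variation missing from the deposited values also entered as terms, the limma-adjusted p over all 19 libraries was 0.504.

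The other genes with the lowest p in each direction did not pass the threshold and are given as measured values. Among those higher in males, Plat encodes tissue plasminogen activator, a secreted protease. Its log2 values were 8.86, 9.02, 9.03 and 8.82 in males and 8.22, 8.29, 8.003, 8.18 and 8.12 in metestrus. The groups did not overlap, and the difference was 0.77 with a standard error of 0.15 (limma, adjusted p = 0.254). In the 10 females of the other batches Plat lay between 7.52 and 8.39, below every male, but sex and batch cannot be told apart there.

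Inhba encodes the subunit of activin A, a ligand of the TGF-beta family. Males had log2 values of 8.03, 8.21, 7.40 and 8.67, and metestrus libraries 6.83, 6.94, 7.04, 6.70 and 6.88. The groups were separate, with a difference of 1.20 and a standard error of 0.25 (limma, adjusted p = 0.283). The females of other batches ranged from 5.76 to 7.29 for this gene, again below the lowest male and with sex and batch confounded.

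Rara, the retinoic acid receptor alpha, measured 9.30, 9.42, 8.99 and 9.48 in males against 8.68, 8.64, 8.55, 8.62 and 8.45 in metestrus (difference 0.71, standard error 0.15). Nherf1, a scaffold protein of the membrane cytoskeleton, measured 14.68, 14.49, 14.15 and 14.43 in males against 14.07, 13.57, 13.85, 13.52 and 13.83 in metestrus (difference 0.67, standard error 0.16). For both genes the groups did not overlap. Zfp948, a zinc finger gene, differed by 0.78, and Esam, an adhesion molecule of endothelial cells, by 1.46, also with separate groups. Slc37a2, a sugar phosphate exchanger, had the greatest difference of the 8, at 3.33 (standard error 0.74). Its metestrus values were spread from 2.53 to 7.02, while the males lay between 7.06 and 8.29. Limma's adjusted p for these 5 genes was 0.365 to 0.459.

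Among genes lower in males, Ormdl1, a regulator of sphingolipid synthesis, measured 7.11, 7.38, 6.46 and 6.75 in males and 8.16, 7.63, 7.86, 7.85 and 7.99 in metestrus. The groups were separate, with a difference of -0.97 (standard error 0.23). Pip5k1b, a kinase that makes the membrane lipid PIP2, measured 6.70, 6.68, 7.13 and 6.58 in males and 7.51, 7.76, 7.71, 8.05 and 7.43 in metestrus, a difference of -0.92 (standard error 0.21). Its groups were also separate.

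Nt5dc1, a nucleotidase domain protein, differed by -1.24 and Sema7a, a membrane-anchored semaphorin, by -0.93. The long non-coding RNA Reno1 differed by -1.09 and Lipa, the lysosomal acid lipase, by -0.71. Groups were separate for these 4 genes. Btaf1, a factor that acts on the TATA-binding protein, and Stk32c, a protein kinase, had differences of -0.77 and -0.99, and for both the highest male lay above the lowest metestrus library. Limma's adjusted p for the 8 genes was 0.459 to 0.588.

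**Figure D2:**
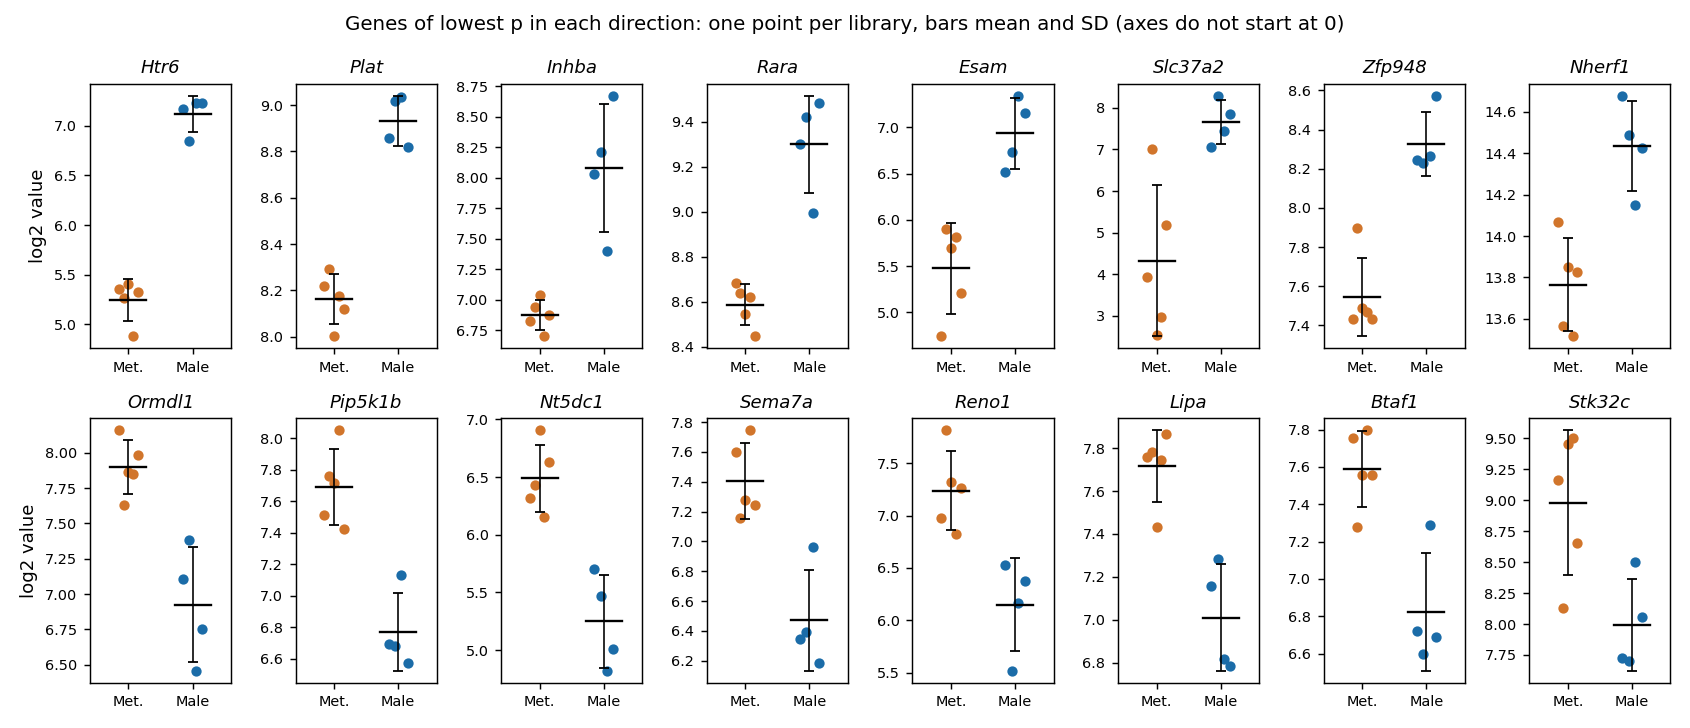
Log2 value (y axis) of Htr6 and the other genes of lowest p in each direction, 1 point per library, with metestrus (orange, n = 5) and male (blue, n = 4) side by side, and bars for the mean and SD. Htr6, at 7.12 in males and 5.25 in metestrus, passed the adjusted threshold, and the others did not.

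The gene lists with members of known function held 868 tested symbols of 930 listed, and none of the tested members passed the adjusted threshold. Scaling to equal totals lowered the median of all autosomal genes from 0.05 to -0.04 and the list medians alike, so small positive medians, such as that of the clock genes (-0.03), turned negative under it. The immediate early genes had the highest list median, 0.79 log2 units against 0.05 over all autosomal genes. All 22 were tested, 21 had a positive difference, and 12 were higher in males at an unadjusted p under 0.05, against 4.59% of all autosomal genes. None was lower at that level. After scaling to equal totals the median was 0.70 and 8 members were higher at that level, as were 505 of all 16071 autosomal genes. With the replicate number as a block 5 members were, against 678 of all autosomal genes. The lists and their members were chosen with earlier results of these data known, so these counts are no independent support for a difference.

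The transcription factor genes Egr3, Ier2, Klf4 and Fos had the lowest p in the list. Egr3 measured 11.37, 11.25, 10.68 and 11.91 in males and 10.49, 10.42, 10.76, 9.97 and 10.59 in metestrus. Male replicate 3 fell within the metestrus range, and the difference was 0.86 (standard error 0.23). Ier2 measured 9.73, 8.84, 8.69 and 9.49 in males and 8.21, 8.60, 8.63, 8.02 and 8.35 in metestrus. Its groups were separate by a narrow margin, at a difference of 0.82 (standard error 0.23).

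Fos, a subunit of the AP-1 factor, measured 12.14, 10.69, 10.44 and 12.78 in males against 8.80, 10.62, 10.91, 9.29 and 9.91 in metestrus. The male values split into a high pair, replicates 1 and 4, and a pair within the metestrus range, and the difference was 1.61 (standard error 0.51). Klf4 differed by 1.16 (standard error 0.38) with overlapping groups. The next genes in the list were chosen for mention after their values were seen. Jund differed by 0.40 and, beside Ier2, was the other member with separate groups. Egr1 differed by 0.97, Arc, which encodes a regulator of receptor trafficking at synapses, by 1.51, and the nuclear receptor gene Nr4a1 by 1.37, with overlap in each. Limma's adjusted p for these 8 genes was 0.583 to 0.726. Per1, which is both an immediate early and a clock gene, had a difference of -0.15.

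The mean log2 value over the 22 genes was 9.69, 8.72, 9.16 and 10.26 in males and 8.09, 9.29, 8.94, 8.46 and 8.73 in metestrus, so the groups overlapped. Male replicate 4 was the highest library and metestrus replicate 1 the lowest. The number of members with an unadjusted p under 0.05 was 5 without male replicate 1, without male replicate 4 or without metestrus replicate 4, 7 without metestrus replicate 6 and 8 without metestrus replicate 1. It was 13 to 16 without any other single library. The list median stayed positive in each of these, between 0.53 (without male replicate 4) and 0.999 (without male replicate 3). Neuronal markers had a list median of 0.00. Of 18 members, 2 (Nrgn at 0.41 and Rbfox3 at 0.32) were higher at an unadjusted p under 0.05, against 4.59% of all autosomal genes. Marker levels do not measure the activity of neurons, and the part of neuronal RNA in the immediate early values was not tested. The hour and handling of the males are not known, and their part in these values was not tested.

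**Figure D3:**
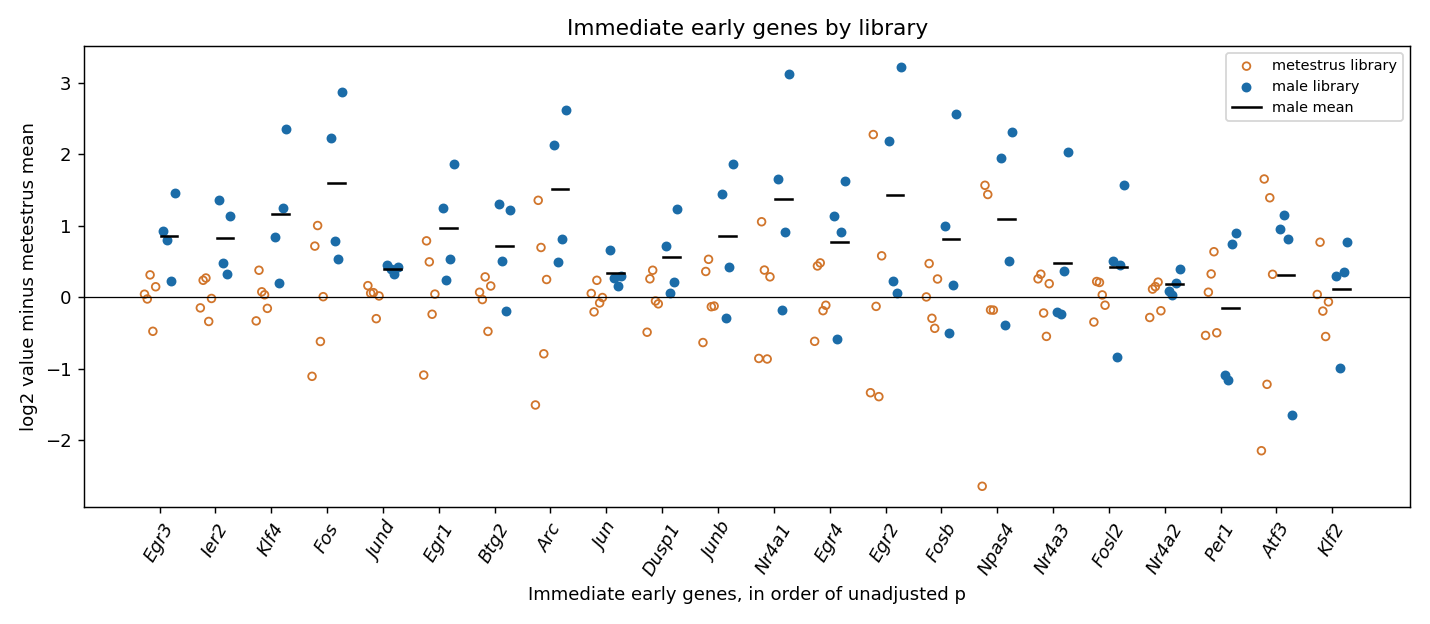
Log2 value of each of the 22 immediate early genes in each library minus the metestrus mean of that gene (y axis), with genes in order of unadjusted p (x axis), metestrus libraries as open circles, male libraries as filled circles and the male mean as a bar. The male mean is above 0 for 21 genes, while male and metestrus points overlap for all but Ier2 and Jund.

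The promoters of Btg2, an antiproliferative gene, and Dusp1, a phosphatase that switches off MAP kinases, are shown. Among the immediate early genes with a promoter entry, they are the members with a cAMP response element in the searched window. They are at chr1:134079106-134079405 and chr17:26508423-26508722 of GRCm38.p6 (RefSeq), both on the minus strand. Capitals mark TGACGTCA and, in Btg2, the reverse complement of AGGTCA, and the marked stretches do not overlap.

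Btg2: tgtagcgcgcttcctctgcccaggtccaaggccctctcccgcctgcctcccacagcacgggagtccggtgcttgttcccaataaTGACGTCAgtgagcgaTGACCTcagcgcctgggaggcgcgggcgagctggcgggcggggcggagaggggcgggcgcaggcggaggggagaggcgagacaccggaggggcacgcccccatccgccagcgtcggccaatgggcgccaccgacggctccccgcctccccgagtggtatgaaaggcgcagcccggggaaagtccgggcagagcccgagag

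Dusp1: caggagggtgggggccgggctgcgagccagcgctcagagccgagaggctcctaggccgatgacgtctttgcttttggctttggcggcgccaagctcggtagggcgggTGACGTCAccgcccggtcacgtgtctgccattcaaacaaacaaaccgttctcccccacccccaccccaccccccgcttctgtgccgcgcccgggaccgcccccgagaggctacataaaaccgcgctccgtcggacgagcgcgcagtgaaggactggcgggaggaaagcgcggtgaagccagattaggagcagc

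The list had 23 promoters of 18 genes in the table. Egr1, Egr3, Ier2 and Arc had no entry and were not searched. The cAMP response element was in 2 of them (8.70%), against 1.79% of all promoters in the table and 2.87% of the promoters of autosomal genes tested. A serum response element, known from several genes of this class, was in 4 promoters, against 1.63% of all promoters. All 4 are start regions of Egr2, so they stand for 1 gene. Btg2 differed by 0.71 (standard error 0.28) and Dusp1 by 0.56 (standard error 0.24) between males and metestrus. Neither passed the adjusted threshold.

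Markers of endothelial and mural cells had the next highest list median, 0.49. All 14 were tested, 12 had a positive difference, and 4 were higher in males at an unadjusted p under 0.05, against 4.59% of all autosomal genes. Kdr, the VEGF receptor of endothelial cells, measured 5.57, 6.68, 5.30 and 7.12 in males and 3.55, 4.91, 3.13, 3.40 and 3.67 in metestrus. The groups were separate, at a difference of 2.44 (standard error 0.49; limma, adjusted p = 0.278). Rgs5, a pericyte gene, measured 8.84, 9.88, 9.30 and 8.84 in males against 8.50, 8.65, 8.19, 8.62 and 8.46 in metestrus, also separate, at 0.73 (standard error 0.22).

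Abcc9, a mural potassium channel subunit, differed by 2.59 and Vtn, a secreted adhesion protein of pericytes, by 0.49, both with overlap. Other members were chosen for mention after their values were seen. The defining endothelial genes Cldn5 and Pecam1 had differences of 0.02 and 0.51 with overlap, and the smooth muscle gene Acta2 of -0.66, so the list did not move as a unit. Its mean level ranged from 5.85 to 7.38 in males and from 5.75 to 6.19 in metestrus. Without male replicate 3 the list median was 0.23, with 9 of 14 members positive, and without male replicate 1 it was 0.82. In the fibroblast and meningeal list, 2 of 9 members were higher at an unadjusted p under 0.05, against 4.59% of all autosomal genes. They were the collagens Col1a1 (1.502) and Col3a1 (1.85), with overlapping groups, and 1 was higher at that level without male replicate 1. Of the 9 members 6 were positive and 3 negative, down to -0.54. The list median was 0.31, and 0.04 without male replicate 3. In bulk libraries, a different number of cells of a type and a different amount of RNA per cell cannot be told apart. The part of vascular RNA in the values of Esam or Plat was not tested.

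Astrocyte identity genes showed small differences. The list median was 0.17. Of 22 members 18 were positive, against 58.1% of all autosomal genes and 71.5% of those with a mean log2 value of 11 or more. At an unadjusted p under 0.05, 3 members were higher in males, against 4.59% of all autosomal genes. The positive members numbered 14 with equal totals (median 0.082) and 12 with quantile normalization (median 0.064). The median was 0.096 without male replicate 4, 0.094 without metestrus replicate 3, and 0.29 without metestrus replicate 1, where 5 members were higher at that level. Gfap measured 15.90, 15.59, 15.28 and 15.57 in males and 15.33, 14.63, 14.77, 14.75 and 14.96 in metestrus. Metestrus replicate 1 reached into the male range, and the difference was 0.70 (standard error 0.17; limma, adjusted p = 0.480). Sox9, a transcription factor of astrocyte identity, measured 14.14, 14.08, 14.15 and 14.28 in males and 13.83, 13.73, 13.67, 13.45 and 13.78 in metestrus. Its groups were separate, at 0.47 (standard error 0.13).

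Aqp4, the water channel of the endfeet, differed by 0.49 with overlap. Aldh1l1, whose promoter drives the tag, differed by 0.40 (standard error 0.20), with 12.29 to 12.70 in males and 11.42 to 12.38 in metestrus, and by 0.25 without metestrus replicate 2. Slc1a2, the main glutamate transporter, differed by 0.03 and Apoe, the astrocyte lipid carrier, by -0.04, and the sign of both values changed between settings. The 95% interval for Slc1a2 ran from -0.31 to 0.36 and that for Apoe from -0.48 to 0.40.

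Rpl10a encodes the ribosomal protein that is also part of the tag, and reads of the transgene may have been counted with the endogenous gene. It measured 13.42, 12.58, 12.999 and 12.97 in males and 12.44, 12.37, 12.38, 12.42 and 12.38 in metestrus. The groups were separate, at 0.60 (standard error 0.16; limma, adjusted p = 0.583). Among the 75 cytosolic ribosomal protein genes it was the single member with an unadjusted p under 0.05, and the list median was -0.03. Over all autosomal genes 4.59% were higher and 2.03% lower at that level. The count depended on the setting. With array weights 22 members were lower (1251 of all 16071 autosomal genes were), and without male replicate 2, 5 were lower (313 of all were). The part of the transgene in the Rpl10a value was not tested.

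Of 25 tested genes of the cytoskeleton and of astrocyte processes, 5 were higher at an unadjusted p under 0.05 (4.59% of all autosomal genes were) and none was lower, and the list median was 0.21. The count was 3 without male replicate 1 or metestrus replicate 2, 3 or 6, and without metestrus replicate 2 the median was 0.12. Beside Gfap these included the actin regulator Pfn1 (0.43) and the filament gene Vim (0.44), each with separate groups. The list of reactive astrocyte genes had 5 of 26 members higher at that level and a median of 0.31. The count was 2 without male replicate 1 and 3 without metestrus replicate 3 or 4, and the median was 0.20 without male replicate 3 or metestrus replicate 2 and 0.18 without metestrus replicate 4. Amigo2, an adhesion molecule, differed by 0.63, the small heat shock protein gene Hspb1 by 0.74 and the prostaglandin synthase gene Ptgs2 by 2.17, each with overlap.

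In the list of growth factors and their receptors, 3 of 36 members were higher and 3 lower at an unadjusted p under 0.05, against 4.59% and 2.03% of all autosomal genes. The higher count was 7 without male replicate 3, male replicate 4 or metestrus replicate 1, while the lower count was 2 without metestrus replicate 3 or 6. The list median was 0.16, and it was 0.10 without male replicate 1, 0.086 without metestrus replicate 3, 0.080 without metestrus replicate 4 and 0.30 without metestrus replicate 1. Btc, a ligand of the EGF receptor, measured 6.23, 4.75, 3.64 and 7.49 in males and 1.86, 2.13, 1.87, 0.42 and 2.21 in metestrus. All 5 metestrus values were below the low-value limit of 3.32. Btc thus passed the filter only because all 4 males reached the limit, so the separation of its groups followed from the filter. Its difference of 3.83 (standard error 0.75; limma, adjusted p = 0.254) is given as a measured value only.

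Erbb2, a receptor of the same family, measured 4.79, 4.03, 4.62 and 3.33 in males and 5.50, 5.27, 5.59, 5.87 and 5.35 in metestrus, separate in the other direction at -1.32 (standard error 0.39). The other members lower at that level were the neurotrophin gene Ntf3 (-1.71) and the vessel growth factor gene Angpt2 (-1.52), both named after their values were seen. Pdgfa, a growth factor for oligodendrocyte precursors, differed by 0.44 with separate groups. Bdnf, a neurotrophin, differed by 0.76 and Tgfb2, a factor of the TGF-beta family, by 0.51, both with overlap.

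Receptors and enzymes of sex steroid signalling had a list median of 0.00, with 7 of 14 members positive. At an unadjusted p under 0.05, 0 members were higher and 1 was lower, against 4.59% and 2.03% of all autosomal genes. Esr1, the estrogen receptor alpha, measured 6.07, 6.22, 4.87 and 4.64 in males and 6.28, 6.51, 6.41, 6.13 and 5.98 in metestrus. Its difference of -0.81 (standard error 0.37; limma, adjusted p = 0.727) rested on male replicates 3 and 4, since the other male libraries lay within the metestrus range, and it was -0.42 with array weights. Pgr, the progesterone receptor, differed by 0.06, with a 95% interval from -0.31 to 0.42. Estrogen-responsive genes and nuclear receptor coregulators had 0 of 13 members at an unadjusted p under 0.05 and a median of 0.12. In a list of 13 a count of 0 is near the shares over all autosomal genes. With array weights 3 members were higher, against 2112 of all 16071 autosomal genes. Without male replicate 3, 2 were higher and 1 lower, against 1352 and 464 of all.

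Metabolic lists differed in their medians. All 24 cholesterol synthesis genes were tested, and none had an unadjusted p under 0.05, while 19 had a positive difference and the median was 0.26. The median of this list was 0.17 after scaling to equal totals and 0.13 without metestrus replicate 2. Without male replicate 3 or metestrus replicate 4, 3 members were higher at an unadjusted p under 0.05. Of all 16071 autosomal genes, 1352 and 607 were. With array weights 8 members were higher and 1 lower at that level, against 2112 and 1251 of all autosomal genes. Under the same weights 12 of 27 glycolysis list members were higher. For oxidative phosphorylation 4 were higher and 5 lower at that level. Lipid export genes and apolipoproteins had a median of 0.21 (0.097 without metestrus replicate 2) with 11 of 16 positive and none at that level. Genes of glycolysis, glycogen and lactate had a median of 0.12 with 21 of 27 positive, and without metestrus replicate 2 the median was -0.002 with 13 positive. Oxidative phosphorylation had 0 of 49 members at an unadjusted p under 0.05 and a median of -0.01, and genes that handle glutamate and GABA 0 of 18 and 0.00. Over all autosomal genes, 4.59% were higher at an unadjusted p under 0.05, and 1.54% had every male library above every metestrus library. Ppara, a nuclear receptor that drives fatty acid oxidation, was the single one of 23 members of its list at that level, at 0.51 with separate groups. Pdk2, a kinase that restrains pyruvate oxidation, was the single glycolysis list member at that level (0.36), and without male replicate 4, metestrus replicate 2 or metestrus replicate 6 there was none.

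Clock genes had a median of 0.06. Of 20 members, 1 was higher and 1 lower at an unadjusted p under 0.05, against 4.59% and 2.03% of all autosomal genes. Nfil3, a transcriptional repressor, was the higher one (0.94). Tef, an activator of the same output pathway, was the lower one (-0.30), with separate groups. Neither direction had a member at that level without male replicate 1, male replicate 4, metestrus replicate 1 or metestrus replicate 6. The clock output gene Dbp measured 12.14, 11.15, 12.92 and 12.03 in males and 12.62, 12.37, 11.87, 12.44 and 12.23 in metestrus, a difference of -0.25. The males were more spread than the females, with an SD of 0.72 against 0.28. Fkbp5, a glucocorticoid-induced chaperone, measured 8.59, 6.80, 8.07 and 7.08 in males and 8.44, 8.02, 8.05, 8.05 and 8.33 in metestrus. Male replicates 2 and 4 were below every metestrus library, and the difference was -0.54 (standard error 0.32). It was -0.27 without male replicate 2, -0.36 without male replicate 4 and -0.86 without male replicate 1. In the list of glucocorticoid-responsive genes, 12 of 18 members were positive. The median was 0.18 (0.080 without male replicate 4 and 0.11 without metestrus replicate 4). Of these members, 2 were higher and 0 lower at an unadjusted p under 0.05, against 4.59% and 2.03% of all autosomal genes.

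Of 20 motile cilium genes, 4 were lower at an unadjusted p under 0.05 (2.03% of all autosomal genes were) and 2 were higher. The lower count was 0 without male replicate 4 or metestrus replicate 1, 1 without male replicate 2 or metestrus replicate 3, 4 or 6, and 0 with all 19 libraries and batch. The dynein gene Dnah2 differed by 1.70 and the radial spoke gene Rsph4a by -2.04, both at low levels and with overlap. Of 23 cell cycle genes, 3 were higher (4.59% of all autosomal genes were), and 1 without male replicate 1 or metestrus replicate 1 or 6. Mki67, a marker of proliferating cells, measured 6.45, 5.62, 5.99 and 5.98 in males and 3.80, 2.87, 4.95, 4.06 and 3.92 in metestrus. Its groups were separate at 2.09 (standard error 0.43; limma, adjusted p = 0.287), while the list median was 0.00. Microglial and oligodendrocyte markers had no member at an unadjusted p under 0.05, of 12 each.

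**Figure D4:**
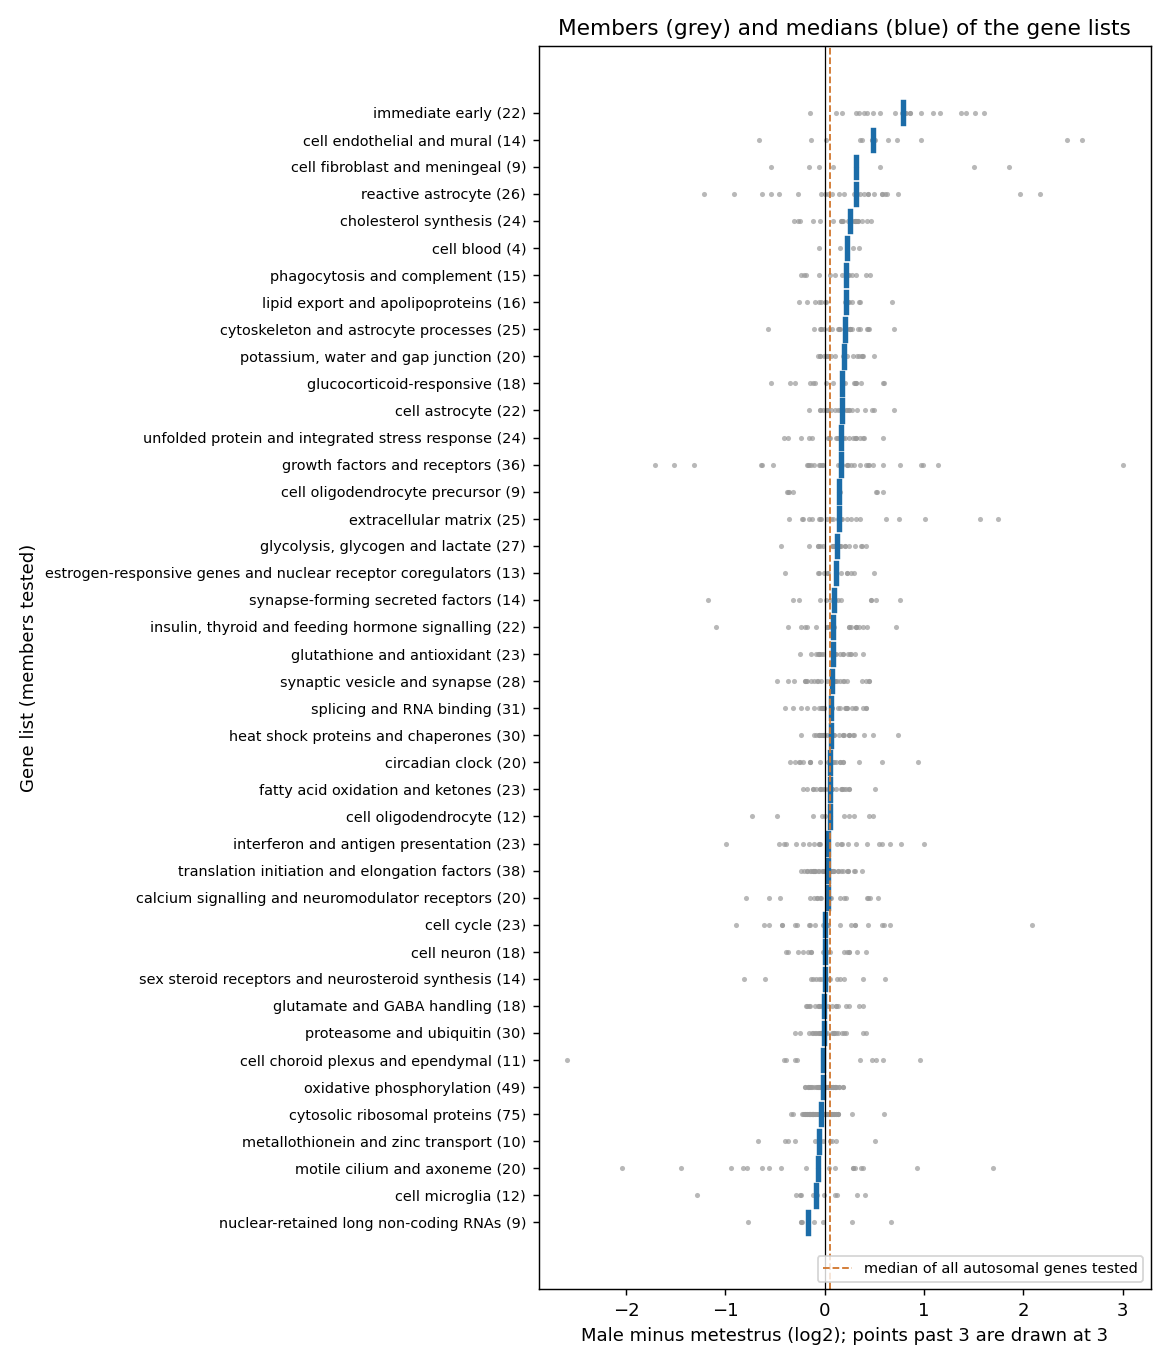
Difference between males and metestrus (log2, x axis) of each tested member (grey points) and the median (blue bar) of the gene lists, in order of the median, with the number of members tested in parentheses and the median of all autosomal genes as a dashed line. Immediate early genes stand at the top with a median of 0.79, and most other lists lie close to the dashed line at 0.05.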

How the data were processed

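Values are the authors' deposited log2 values, 1 per gene and library. Per the submitters' processing notes, STAR, Salmon, edgeR and the build GRCm39 were used, with no versions or roles given. The name of the deposited table holds the letters SVA, a usual abbreviation of surrogate variable analysis, and the values of all 19 libraries span fewer directions than expected (11 residual directions found, 13 expected with batch). The values thus lack directions of variation, and p-values may be too small. The labels do not state how they were lost. Within batch 4 all 7 residual directions remained, with 6.40% of the residual variance in the 2 smallest.

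Genes reaching 3.32 (log2 of 10) in 4 or more of the 9 libraries were tested, without a pseudocount. limma 3.58.1 in R 4.3.3 was fitted to the groups (trend, robust prior), with two-sided tests adjusted over 17884 genes of every chromosome. Chromosomes came from GENCODE vM21 by gene ID (19268 genes) or RefSeq by symbol (213), and 2268 genes were not placed. The fit was tested on simulated data. Intervals are limma's 95% confidence intervals. Groups and replicate numbers follow the labels.

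Named genes were, at a mean log2 value of at least 5, those past the threshold, filled to 8 per direction by the lowest p, up to 4 members of lowest p of each list described whatever their level, and 10 genes fixed by name. Members and lists were chosen with earlier results of these data known. Alternatives changed the scaling, filter, prior, weights, block, adjustment and libraries.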

Additional observations from a re-analysis of the deposited data

Results flagged for a closer look

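In 52 groups of values (named genes within males or within metestrus), 1 library stood far from the others in 5, where chance gives about 1 in 20. For Htr6, male replicate 2 measured 6.85 (the other males 7.17 to 7.23) and metestrus replicate 4 measured 4.88 (the others 5.27 to 5.41). For Zfp948, male replicate 4 measured 8.57 (the others 8.23 to 8.26) and metestrus replicate 2 measured 7.90 (the others 7.43 to 7.49). For Lipa, metestrus replicate 3 measured 7.43 (the others 7.75 to 7.87).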

How the results depend on the processing

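The count of autosomal genes called was 1, with 1 higher and 0 lower. It was 0 with all 19 libraries and batch, 0 with the removed directions added, 0 with the replicate block (where metestrus replicate 6 has no partner) and 0 when adjusted over autosomal genes only. It was 4 (4 higher) with values raised to the floor, 5 (4 higher, 1 lower) without trend and robust prior, and 185 (137 higher, 48 lower) with array weights. Leaving out 1 library gave 0 to 2. The cause of these shifts was not tested. Other scalings and filters left 1. Same-numbered libraries had correlations of deviations of 0.19, 0.03, -0.13 and -0.08. The labels do not state whether a shared number marks a shared animal or day. These correlations cannot decide it, since the deposited values lack directions of variation.

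Some single-gene values changed sign. Dbp was 0.057 without male replicate 2 (range leaving out 1 library -0.53 to 0.057). Per1 was 0.048 with array weights and positive without male replicate 1 or 2 or metestrus replicate 4 (range -0.50 to 0.19). Pgr was -0.032 with equal totals and negative without male replicate 4 (range -0.056 to 0.14). Apoe was positive without male replicate 2 or metestrus replicate 1 (range -0.15 to 0.15). Slc1a2 was -0.017 with median centring, -0.061 with equal totals, -0.16 with quantile normalization and -0.17 with array weights, and negative without male replicate 3 or 4 or metestrus replicate 3 or 4 (range -0.044 to 0.098). Depth is unknown, and weakly expressed genes are measured least precisely.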
